A study of Mus musculus with 117 samples.

Results

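The tissue kallikreins are secreted serine peptidases encoded by a cluster of closely related genes that lie side by side on mouse chromosome 7. The members described here were 10 genes of that cluster, Klk1, Klk1b3, Klk1b4, Klk1b5, Klk1b8, Klk1b9, Klk1b11, Klk1b16, Klk1b22 and Klk1b26, taken by their names and not by their signals. Every probe set whose annotation gave 1 of these symbols alone was used, which came to 11 probe sets for 8 of the 10 genes, out of 36701 probe sets that were not controls. Klk1b3 and Klk1b4, whose products are the gamma and alpha subunits of the nerve growth factor complex of the submandibular gland, had no probe set with a single symbol and are not analysed here. A further probe set that carried both the symbol Klk1b26 and its older name Egfbp2 was left out because it had several symbols, while 100334_f_at, listed as Egfbp2 alone, was read as Klk1b26.

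RNA came from 39 gland samples of individual female mice, each hybridised to the Affymetrix MG-U74v2 array designs A, B and C. The B6-scid mice were B6.CB17-Prkdc scid/SzJ and the NOD-scid mice were NOD.CB17-Prkdc scid/J. Both strains carry the scid mutation of Prkdc, a kinase needed to join antigen receptor gene segments, so the controls are themselves without mature T and B cells. There were 5 mice per strain for pancreas at 6 weeks, for submandibular gland at 9 weeks and for submandibular gland at 15 weeks. Lacrimal glands at 15 weeks came from 5 B6-scid and 4 NOD-scid mice, and per the labels they carried the same mouse numbers as the submandibular glands of that age. The strains differ across the whole genome and not only at a single locus, and no male mice were included. Pancreas was taken at another age than the other glands, so its levels stand beside theirs without a test.

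Klk1 is the true tissue kallikrein, which cuts kininogen to release vasoactive kinins. The Klk1b genes arose by duplication of it in rodents, and their products mature or bind other secreted proteins. Klk1b9, Klk1b22 and Klk1b26 are known as epidermal growth factor-binding proteins, and Klk1b16 as gamma-renin. In the mouse submandibular gland these peptidases are stored, with epidermal growth factor (Egf), nerve growth factor and renin, in the secretory granules of the granular convoluted tubule, a duct segment that is larger in males and responds to androgen and thyroid hormone. Pancreatic acini also secrete Klk1.

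All 11 probe sets sat on design A. Of these, 8 carried the suffix _f_at, which the manufacturer gave to probe sets whose probes are shared by a family of similar sequences. Another 2 carried _i_at, given where fewer unique probes than usual could be chosen, and 98391_at of Klk1b11 carried no such mark. Because the genes are so alike, a signal may hold RNA of several members. Probe sequences were not used here, so the extent of this was not tested, and values are given per probe set. Signals of different probe sets are not compared with each other, because each set has its own probes.

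Values are MAS5 signals, in arbitrary units, rescaled so that the mean of each array without its lowest and highest 2% was 500. Differences are on the scale log2(signal + 32), which understates changes of dim probe sets, and were tested with limma over all probe sets of the 3 designs that reached a signal of 100 on at least 4 arrays. A difference was called at a Benjamini-Hochberg adjusted p under 0.05. The labelled glands were checked against defining markers. The summed signal of 8 pancreatic acinar markers was 1212480 to 1692050 in pancreas and at most 21765 in all other samples but 1. That exception was the NOD-scid submandibular gland replicate 1 at 9 weeks, with 173289. The lacrimal lipocalin Lcn11 lay between 117665 and 242952 in all 9 lacrimal samples. In 3 lacrimal samples, B6-scid replicates 2 and 3 and NOD-scid replicate 4, some secretory transcripts stood far above the rest of their group. The values of these transcripts are given beside the lacrimal results.

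Klk1 was a bright transcript of both pancreas and submandibular gland and had a lower signal in the lacrimal gland. On its family probe set (100061_f_at) the signal in B6-scid pancreas was 105281, 97539.9, 116582, 121634 and 101501, and in NOD-scid pancreas it was 84627, 82712, 75493, 105604 and 92467. In the submandibular gland at 9 weeks the B6-scid mice gave 140733, 241734, 155579, 115211 and 177915, and the NOD-scid mice gave 213437, 144572, 170664, 135748 and 228889. At 15 weeks the B6-scid values were 108327, 94604, 63616, 81202 and 96663, and the NOD-scid values were 93839, 84635, 79024, 101655 and 106225. Pancreas and submandibular gland thus lay within a few-fold of each other in every group of these 6. The B6-scid lacrimal samples held 2883, 20293, 6539, 2993 and 2444, and the NOD-scid lacrimal samples held 310.3, 252, 325 and 3983, so all 9 were below every pancreas and submandibular sample. By group mean ± SD the order was NOD-scid submandibular at 9 weeks (178662 ± 41230.4, n = 5), B6-scid submandibular at 9 weeks (166234 ± 47968, n = 5), B6-scid pancreas (108508 ± 10214, n = 5), NOD-scid submandibular at 15 weeks (93076 ± 11355, n = 5), B6-scid submandibular at 15 weeks (88882 ± 17093, n = 5), NOD-scid pancreas (88181 ± 11461, n = 5), B6-scid lacrimal (7030.3 ± 7594, n = 5) and NOD-scid lacrimal (1218 ± 1844, n = 4). Neighbours in this order overlapped in their ranges everywhere except between NOD-scid pancreas and B6-scid lacrimal gland. The other Klk1 probe set, 100060_i_at, was dim and scattered, from 4.14 to 1016 over the 39 samples, and its ranges overlapped between all neighbouring groups.

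Klk1b5 and the growth factor-binding Klk1b22 had nearly the order of Klk1 across glands, with NOD-scid submandibular gland at 15 weeks 1 place above B6-scid pancreas. On 104495_f_at of Klk1b5 the pancreas signals were 41598 to 48879 in B6-scid and 27063 to 37427 in NOD-scid mice, against 50819 to 79074 and 65895 to 97393 in the 9-week submandibular gland. Klk1b22 (101289_f_at) gave 50046 to 77309 and 36870.5 to 55445 in pancreas, against 69309 to 118586 and 95338 to 155542 in submandibular gland. In terms of group means, submandibular gland at 9 weeks exceeded pancreas 1.53-fold in B6-scid and 2.03-fold in NOD-scid mice for Klk1, 1.40-fold and 2.44-fold for Klk1b5, and 1.42-fold and 2.65-fold for Klk1b22. Over the 8 group means of log2(signal + 32), these 3 probe sets correlated at r of at least 0.99 with each other. All of them are family probe sets on the same arrays, so shared probes and shared scaling enter that figure.

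The remaining genes were mainly submandibular. Klk1b26 (100334_f_at) had signals of 707 to 1360.1 in B6-scid and 464 to 1359 in NOD-scid pancreas. In the submandibular gland at 9 weeks it had 15608, 45280.5, 48364, 49297 and 98102 in B6-scid and 109261, 93993, 90699.7, 117753 and 141726 in NOD-scid mice. This was 52.0-fold and 117-fold above pancreas by group mean, with no overlap. For the gamma-renin gene Klk1b16 (100719_f_at) the same ratio was 10.7-fold and 22.7-fold, for Klk1b8 (104497_f_at) 8.72-fold and 23.0-fold, for Klk1b11 4.28-fold and 12.6-fold, and for Klk1b9 2.87-fold and 6.13-fold. In pancreas these 5 probe sets still lay above the lacrimal gland by group mean. In all 5, every submandibular sample exceeded every pancreas sample, narrowly for Klk1b9 (lowest submandibular 718.4, highest pancreatic 717.9). The other Klk1b8 probe set, 104496_i_at, did not share this. Its ratio at 9 weeks was 2.05-fold in B6-scid mice, with overlapping ranges, and 9.96-fold in NOD-scid mice, without overlap.

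**Figure D1:**
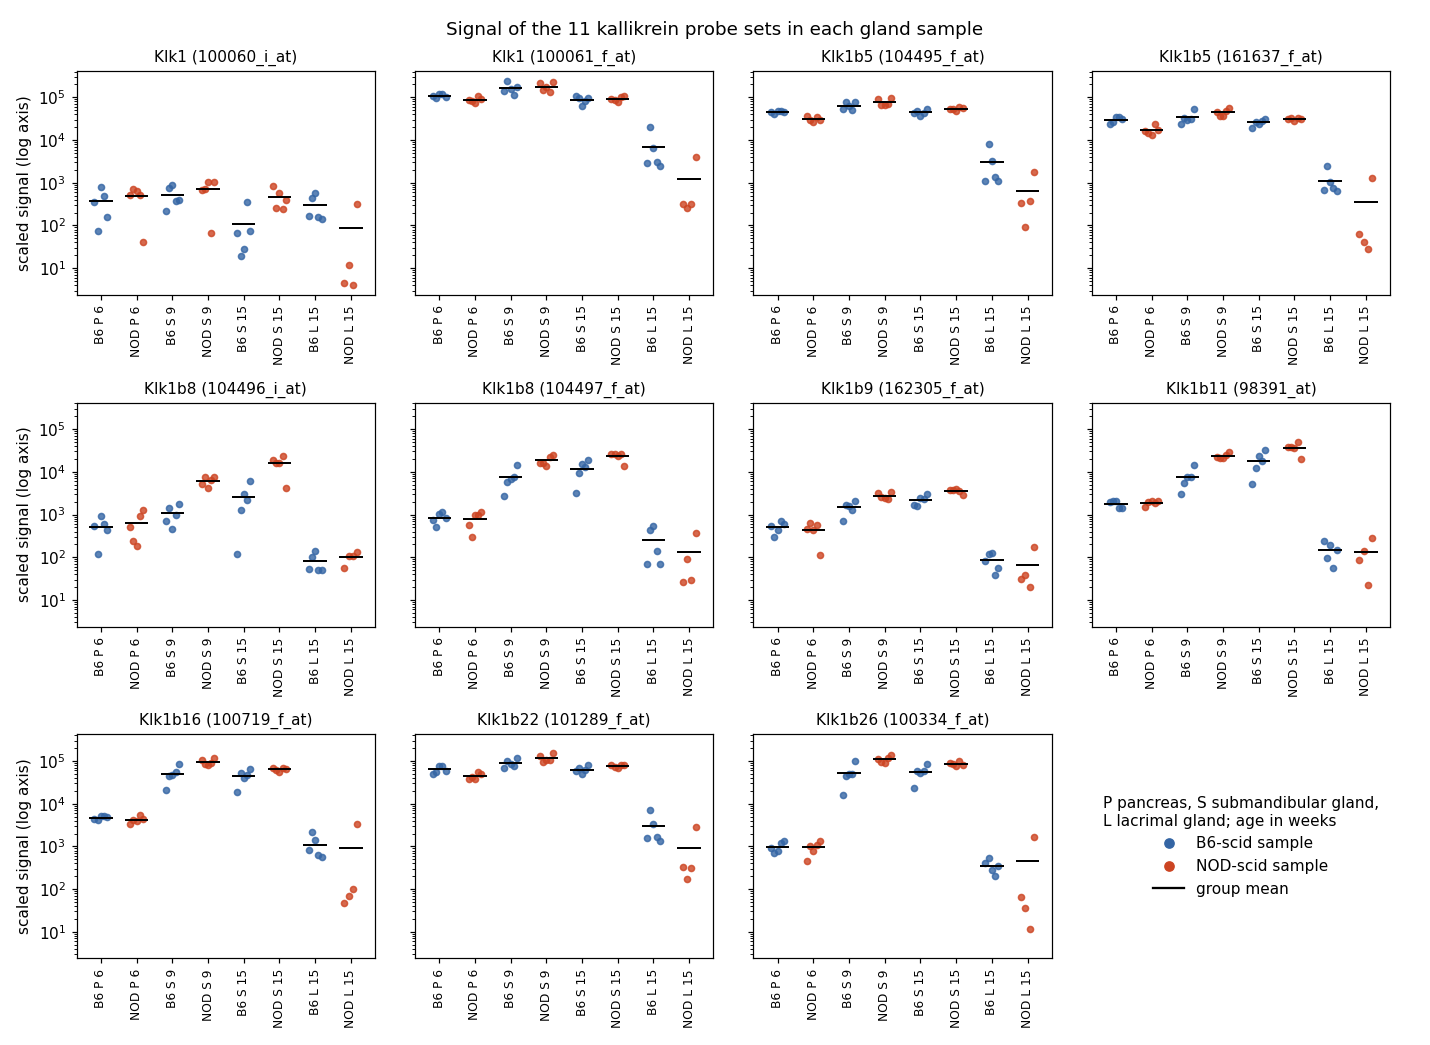
Scaled signal (log axis) of the 11 kallikrein probe sets in each gland sample, 1 panel a probe set; each point is a mouse, B6-scid in blue and NOD-scid in red, and the bar is the arithmetic group mean. Klk1, Klk1b5 and Klk1b22 are bright in pancreas (P) and submandibular gland (S) alike, Klk1b26 is 52.0-fold higher in B6-scid submandibular gland than in pancreas, and the lacrimal samples (L) are the lowest for most probe sets.

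The stretches just before the gene starts are shown for the 7 measured Klk1b genes, whose windows fall into 2 forms. They are 100 bases long on the plus strand, ending 1 base before the annotated start, from RefSeq annotation of GRCm38.p6, in which all 10 genes had a window. Capitals mark the run of A and T bases around the letters TTTAAA.
Klk1b11 (chr7:43995777-43995876): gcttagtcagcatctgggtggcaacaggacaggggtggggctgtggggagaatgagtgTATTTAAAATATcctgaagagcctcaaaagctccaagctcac
Klk1b16 (chr7:44137190-44137289): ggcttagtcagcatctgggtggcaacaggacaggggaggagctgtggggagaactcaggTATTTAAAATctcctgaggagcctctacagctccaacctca
Klk1b26 (chr7:44012578-44012677): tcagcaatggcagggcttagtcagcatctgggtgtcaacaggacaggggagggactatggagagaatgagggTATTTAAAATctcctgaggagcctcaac
Klk1b8 (chr7:43950566-43950665): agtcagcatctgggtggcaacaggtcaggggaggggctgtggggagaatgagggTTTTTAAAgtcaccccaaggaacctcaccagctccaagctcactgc
Klk1b9 (chr7:43975961-43976060): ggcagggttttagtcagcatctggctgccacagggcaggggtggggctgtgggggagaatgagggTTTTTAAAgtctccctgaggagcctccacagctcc
Klk1b22 (chr7:44112573-44112672): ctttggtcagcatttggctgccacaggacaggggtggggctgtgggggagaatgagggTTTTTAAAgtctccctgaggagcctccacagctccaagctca
Klk1b5 (chr7:44216374-44216473): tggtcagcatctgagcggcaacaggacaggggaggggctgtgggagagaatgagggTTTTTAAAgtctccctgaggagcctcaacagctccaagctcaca
The letters TTTAAA, which read the same on both strands, stood in 9 of the 10 windows (250 bases before to 50 after the start). They were not in the window of Klk1, and that says only that these letters are not there. Among all 32851 windows of that length, 13.2% held them. Klk1b11, Klk1b16 and Klk1b26 had the longer form TATTTAAA, found on either strand in 1.81% of all windows. Klk1b3, Klk1b5, Klk1b8, Klk1b9 and Klk1b22 had TTTTTAAAG, found in 1.05% of all windows. Both longer motifs overlap TTTAAA, and all were chosen after the sequences had been seen. The run began 28 bases before the start in Klk1b26, 35 in Klk1b9, 41 in Klk1b16, 42 in Klk1b11 and Klk1b22, 44 in Klk1b5 and 46 in Klk1b8. Aligned from 150 bases before TTTAAA to 10 after it, the 21 pairs of these 7 genes were 75.1% to 92.2% identical, with a median of 81.4%. The closest were Klk1b11 with Klk1b16 and with Klk1b26 (92.2% each) and Klk1b16 with Klk1b26 (91.6%), followed by Klk1b9 with Klk1b22 (89.2%).

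In the submandibular gland at 9 weeks, NOD-scid mice had more Klk1b11 signal than B6-scid mice. The B6-scid values were 3062, 5383, 7746, 7390.1 and 14784, and the NOD-scid values were 21950.2, 21064, 20965, 25506 and 29452. No B6-scid mouse reached the lowest NOD-scid mouse, and Klk1b11 rose by a log2 difference of 1.80 (SE 0.43, adjusted p = 0.0491) in limma's test, or 3.10-fold by group mean. It was the 1 member called of 11, where 0.940% of all probe sets were called in either direction. The call was close to the threshold. Leaving out each of the 20 submandibular samples in turn ended it in 16 cases, with adjusted p from 0.0162 to 0.126, while the log2 difference stayed between 1.52 and 2.08.

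Klk1b8 and Klk1b9 did not overlap between strains either at 9 weeks but did not pass the test. On 104496_i_at of Klk1b8 the B6-scid values were 719.6, 1414, 465, 971 and 1815 and the NOD-scid values 5284, 7496, 4210.4, 6514 and 7517, a log2 difference of 2.61 (SE 0.70, adjusted p = 0.0889). On the family probe set of Klk1b8 the values were 2694, 5867, 6695, 7596 and 14161 against 15920.5, 15795, 13372, 22769 and 24504, where the highest B6-scid mouse, replicate 5, lay within the NOD-scid range. Klk1b9 gave 718, 1691, 1627, 1311 and 2128 against 3159, 2518, 2408, 2305 and 3306, a log2 difference of 0.93 (SE 0.26, adjusted p = 0.108). Non-overlap was thus seen for 3 of 11 probe sets, where 2.10% of all probe sets did not overlap. Klk1b26, whose values are given above, differed by 1.31 (SE 0.37, adjusted p = 0.121). For Klk1b16, B6-scid mice had 20383, 45257, 47552, 56401 and 83267 and NOD-scid mice 104176, 86754, 82317, 89815 and 116221, a log2 difference of 1.05 (SE 0.33, adjusted p = 0.176). In both, B6-scid replicate 1 was the lowest sample and replicate 5 the highest of its group. Klk1, Klk1b5 and Klk1b22 differed little, with log2 differences of 0.12 for Klk1 (95% interval -0.35 to 0.59), 0.29 and 0.43 for Klk1b5, and 0.41 for Klk1b22 (95% interval -0.01 to 0.82). The difference was above 0 for all 11 probe sets, with a median of 0.93 beside 0.03 over all probe sets, but for 8 of 11 after quantile normalization in place of the trimmed mean.

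At 15 weeks Klk1b8 was the member called, on 104496_i_at. The B6-scid values were 119, 1285, 3077, 2202 and 5986, and the NOD-scid values were 18663, 16319, 16028, 23896 and 4161. The groups overlapped, because NOD-scid replicate 5 lay below B6-scid replicate 5. The log2 difference was 3.17 (SE 0.70, adjusted p = 0.0411) by limma, or 6.24-fold by group mean, and it was the 1 member called of 11, where 0.554% of all probe sets were called in either direction. It was lost in 14 of 20 fits that each left out 1 sample, with adjusted p from 0.0118 to 0.120 and the log2 difference between 2.34 and 3.66. The family probe set of the same gene, 104497_f_at, gave 3197, 9217, 15575, 12687 and 18599 against 26476, 26258, 24079.8, 26127 and 13531, a log2 difference of 1.15 (SE 0.43, adjusted p = 0.502) that did not pass.

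Klk1b11 at 15 weeks had 5129.6, 12144, 24097, 17860.4 and 32970.2 in B6-scid and 38824, 38446, 35537, 49932 and 20209.6 in NOD-scid mice, a log2 difference of 1.18 (SE 0.43, adjusted p = 0.465). Here too NOD-scid replicate 5 fell within the B6-scid range while the other 4 lay above it. Klk1b26 gave 22739.5, 56756, 53439, 58839 and 84585 against 90571, 83769.7, 74398, 100219 and 82304, and Klk1b16 gave 18574, 52782, 39150.4, 46851 and 65040.1 against 69752, 61275, 56281, 67102 and 66034. Their log2 differences were 0.75 (adjusted p = 0.790) and 0.64 (adjusted p = 0.816). In both genes B6-scid replicate 1 was far below its group, and the highest B6-scid mouse lay within the NOD-scid range. None of the 11 probe sets separated the strains without overlap at this age, where 2.83% of all probe sets did. The median log2 difference of the 11 was 0.73 beside 0.01 over all probe sets. All 11 were above 0, and 10 of 11 after quantile normalization.

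**Figure D2:**
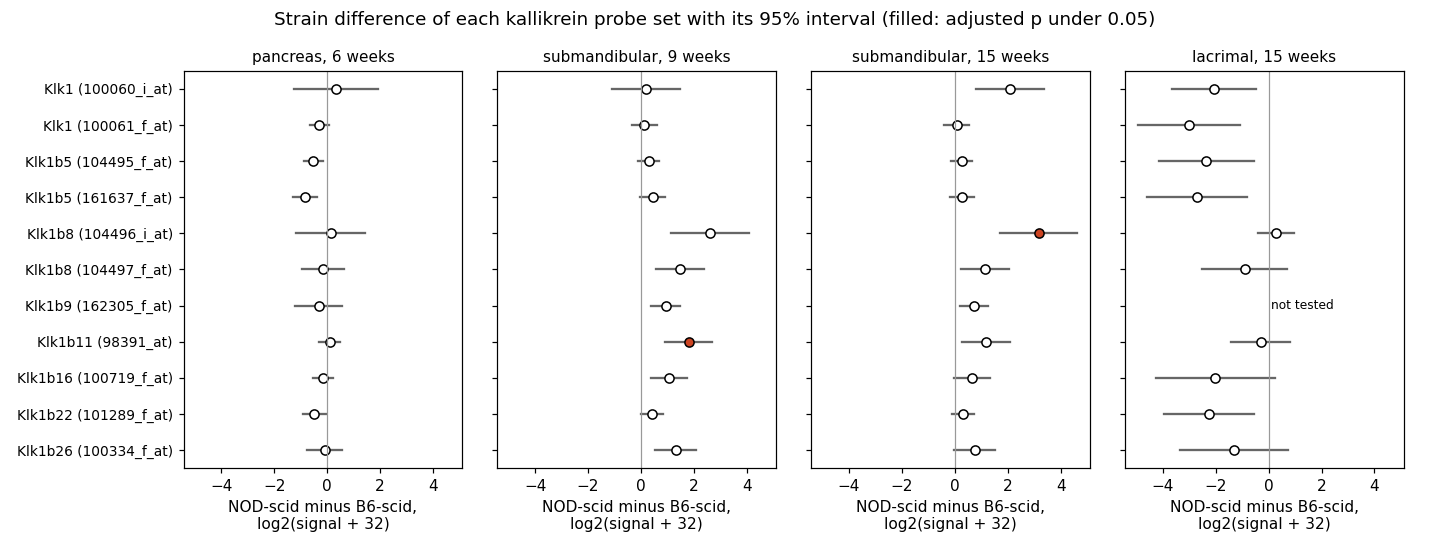
Log2 difference (NOD-scid minus B6-scid, on log2(signal + 32)) of each kallikrein probe set with its 95% interval, 1 panel a gland and age; filled points had an adjusted p under 0.05. Klk1b11 at 9 weeks (1.80) and Klk1b8 on 104496_i_at at 15 weeks (3.17) are the filled points, Klk1 lies near 0 in the submandibular panels on its family probe set, and most lacrimal points lie below 0 with wide intervals.

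Of 7 other granular convoluted tubule products tested, none was called between strains at either age, and their median log2 differences were -0.02 at 9 and 0.08 at 15 weeks beside 0.03 and 0.01 over all probe sets. Egf and Crisp3 had the highest differences of the 7 at both ages, while Smr3a, a salivary prohormone-like protein, gave -1.35 (adjusted p = 0.261) at 9 and 0.08 at 15 weeks. Egf was 3705, 5646, 5448, 7660.3 and 8605 in B6-scid and 12140.4, 24294, 13312, 16269.7 and 14100.4 in NOD-scid mice at 9 weeks. At 15 weeks it was 4239.8, 11938, 20116, 17088 and 28081 and 41988, 34552, 32922, 44607 and 16857, so the low B6-scid replicate 1 and the low NOD-scid replicate 5 recurred. Its log2 strain differences of 1.38 and 1.24 had adjusted p of 0.135 and 0.354, and those of Crisp3, another granule protein, were 1.71 and 1.29 (adjusted p = 0.0683 and 0.389). The summed signal of the granular duct markers with a probe set (3 of 5 listed) was 5185 to 10513 in B6-scid and 14107 to 25530 in NOD-scid mice at 9 weeks. At 15 weeks the sums were 5248 to 29467 and 17963 to 45583, with overlap. Egf, given above, supplied most of these sums, and Smr3a, another of the 3 markers, went the other way at 9 weeks. The sums therefore mainly repeat Egf and show no agreement across the markers. In bulk tissue, fewer granular duct cells and less RNA per cell cannot be told apart. Their part in the strain differences was not tested. Parotid markers (3 of 3 with a probe set) summed to 2343 to 17690 in B6-scid and 875 to 1877 in NOD-scid glands at 9 weeks. At 15 weeks they summed to 1902 to 20487 and 1232 to 2463, with overlap. Bpifa2, also listed as a submandibular acinar marker, supplied most of the B6-scid sums, with 1646 to 15668 at 9 weeks. Prpmp5 was then 210 to 465 in B6-scid and 249 to 502 in NOD-scid mice. Amy1 was 348 to 1812 and 91.9 to 290 at the same age. The part of these markers in the strain differences was not tested either.

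The spread between B6-scid mice is given first. At both ages the SD of log2(signal + 32) was 0.69 to 1.03 for Klk1b8 (104497_f_at), Klk1b11, Klk1b16 and Klk1b26. For Klk1 on 100061_f_at it was 0.30 and 0.40. In NOD-scid mice the same SDs were 0.12 to 0.48 and 0.18 and 0.33. Other probe sets did not divide in this way. In B6-scid mice Klk1b9 gave 0.58 at 9 and 0.40 at 15 weeks, and 104496_i_at of Klk1b8 gave 0.75 and 2.03. In NOD-scid mice Klk1b9 gave 0.23 and 0.18, and 104496_i_at gave 0.36 and 0.99. Klk1 lay among the 6 brightest probe sets of design A on each of the 20 submandibular arrays, so its SD is that of a signal at the upper end of the array. Whether its RNA varied less between mice was not tested. Within groups, the deviations from the group mean were compared over the 20 submandibular samples. These points share arrays, gland pieces and scaling, and the family probe sets may share probes, so the coefficients are given as descriptions. Klk1b8 (104497_f_at) and Klk1b11 correlated at r = 0.97 and Klk1b16 and Klk1b26 at 0.97. Klk1b11 correlated with Klk1b26 at 0.88 and with Klk1b16 at 0.82. Klk1b5 (104495_f_at) and Klk1b22 stood together at 0.94, and Klk1 with Klk1b5 at 0.83. Between Klk1 and Klk1b8 the coefficient was -0.17, and between Klk1 and Klk1b11 -0.16. The 2 probe sets of Klk1b5 differed in company, since 161637_f_at correlated with Klk1b26 at 0.89 and 104495_f_at with Klk1b26 at 0.57. Whether the upstream sequences have a part in these coefficients was not tested. Of 25572 other probe sets, those with the highest mean r to the 11 members were Sfrp2 (0.63), Klk1b21 (0.60), Amhr2 (0.60), Zzef1 (0.60) and Ubac2 (0.59), each over the same 20 samples.

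**Figure D3:**
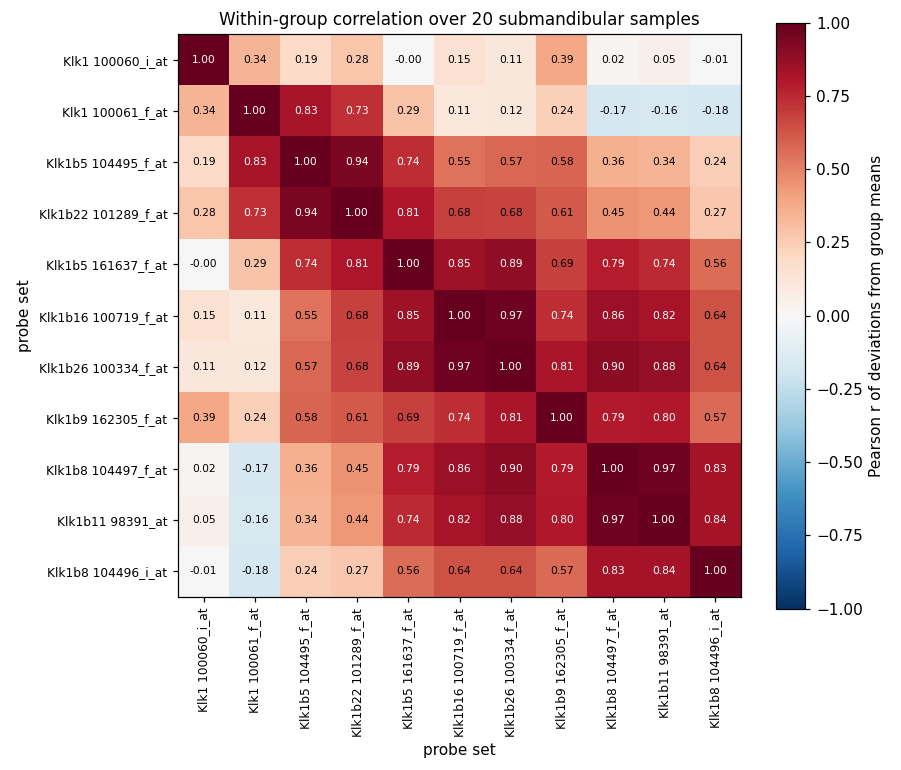
Pearson r of deviations from group means between the 11 kallikrein probe sets over 20 submandibular samples, with probe sets on both axes and r as colour and number. A block of Klk1b8, Klk1b11, Klk1b16 and Klk1b26 stands apart from Klk1, which is closest to Klk1b5 (0.83).

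Coefficients with genes outside the member list were taken in the same way. Klk1b11 correlated within groups with Egf at r = 0.88 and with Crisp3 at 0.86, and Klk1b8 on 104496_i_at with Egf at 0.92. Klk1 correlated with Egf at -0.35. Taken group by group (n = 5 each), Klk1b11 with Egf gave 0.91 in B6-scid and -0.20 in NOD-scid mice at 9 weeks, and 0.99 and 0.98 at 15 weeks, so the pooled value does not hold for NOD-scid mice at 9 weeks. Klk1 correlated at 0.97 with Prol1, a proline-rich secretory protein of salivary and lacrimal acini, and at 0.97 with Klk1b1 of the same cluster. These 3 probe sets lie at the top of the arrays. On 17 of the 20 arrays one of them was the brightest probe set of design A. Within groups they correlated with the array's highest signal at 0.98 (Klk1), 0.99 (Prol1) and 0.99 (Klk1b1). Those coefficients are in part of a signal with itself, so they test nothing. Whether the coefficients among the 3 hold joint expression or a shared movement of the brightest signals was not tested. Prol1 was set beside Klk1 after its values had been seen. The upper end of the design A array, taken as the signal that 0.1% of its probe sets exceeded, correlated at 0.75 with Klk1, 0.91 with Klk1b5 (104495_f_at) and 0.93 with Klk1b22. For Klk1b11 the same coefficient was 0.26.

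**Figure D4:**
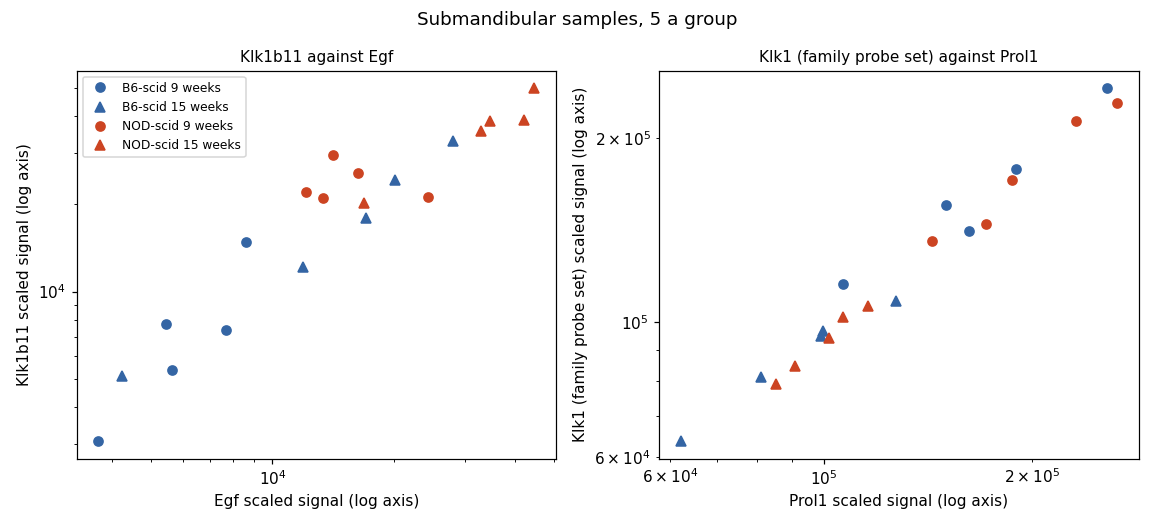
Scaled signals (log axes) of Klk1b11 against Egf, left, and of Klk1 (100061_f_at) against Prol1, right, in the 20 submandibular samples, 5 a group; colour gives the strain and shape the age. Klk1b11 rises with Egf in 3 of the 4 groups and not in NOD-scid mice at 9 weeks (r = -0.20), and Klk1 and Prol1, both at the top of the arrays, lie along a line (within-group r = 0.97).

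Between 9 and 15 weeks no member was called in either strain, where 1.06% of all probe sets were called in B6-scid and 0.797% in NOD-scid mice. Klk1 on its family probe set had lower values at 15 weeks, by a log2 difference of -0.88 (SE 0.23, adjusted p = 0.0648) in B6-scid and -0.92 (SE 0.23, adjusted p = 0.0613) in NOD-scid mice, without overlap in either strain and without passing the test, and after quantile normalization the differences were 0.07 and 0.08. The difference of Klk1b11 was 1.19 (SE 0.43, adjusted p = 0.189) in B6-scid and 0.57 (SE 0.43, adjusted p = 0.581) in NOD-scid mice, and the values overlapped in both strains. Klk1b8 on 104496_i_at differed by 0.61 and 1.18. In NOD-scid mice the ages did not overlap for 5 of 11 probe sets, those of Klk1, Klk1b5 (both), Klk1b16 and Klk1b22, all lower at 15 weeks, where 4.06% of all probe sets did not overlap. In B6-scid mice only Klk1 did not overlap, where 4.04% of all probe sets did not.

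The upper end of the arrays moved with age beside these values. The signal exceeded by 0.1% of design A probe sets averaged 75502 at 9 and 49809 at 15 weeks in B6-scid mice, and 104709 and 56586 in NOD-scid mice. Of the 18 probe sets with a mean submandibular signal of at least 50000, 5 of them members, 17 were lower at 15 weeks in B6-scid and 18 in NOD-scid mice. Their median log2 differences were -0.85 and -0.93, beside -0.02 and -0.01 over design A. After quantile normalization the age difference was above 0 for 10 of 11 members in each strain. The part of the arrays' upper end in the age differences of the bright members was not tested. The difference between the strain differences at the 2 ages was not called for any of the 11 members by limma, as for none of the 32136 probe sets tested (0%). Without adjustment 1 of the 11 had p under 0.05, and the share of all probe sets under that p is not given here.

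In pancreas no kallikrein probe set was called between strains, where 0.442% of all probe sets were. Klk1b5 came closest. On 161637_f_at the B6-scid values were 23324, 25836, 34588, 35277 and 30614 and the NOD-scid values 16021, 14417, 13023, 23299 and 16883. On 104495_f_at they were 45682, 41598, 47574, 48879 and 44313 and 37427, 29779, 27063, 35242 and 30023. NOD-scid mice lay below all B6-scid mice on both, with log2 differences of -0.85 (SE 0.21, adjusted p = 0.146) and -0.52 (SE 0.16, adjusted p = 0.253). Non-overlap was seen for these 2 of 11 probe sets, where 3.00% of all probe sets did not overlap. Klk1b5 on 161637_f_at passed in other settings, with adjusted p 0.0440 when design A was tested alone and 0.0336 with a variance trend. Klk1, the main pancreatic kallikrein, differed by -0.30 (95% interval -0.66 to 0.05, adjusted p = 0.601) and Klk1b22 by -0.50 (adjusted p = 0.456). The median log2 difference of the 11 was -0.17 beside 0.02 over all probe sets, with 8 below 0. The signal exceeded by 0.1% of design A probe sets averaged 135662 in B6-scid and 116297 in NOD-scid pancreas. Its part in the differences of the bright members was not tested.

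On most probe sets lacrimal glands held less kallikrein signal than the other glands. For Klk1, Klk1b5, Klk1b16, Klk1b22 and Klk1b26 the signal was lower in NOD-scid than in B6-scid mice except in 1 NOD-scid sample. Klk1b16 was 812, 2165, 1393, 619.9 and 551 in B6-scid and 48.6, 70.4, 98.8 and 3436 in NOD-scid mice. Klk1b22 was 1613, 7280.0, 3334, 1687 and 1372 and 324, 176, 308 and 2882, and Klk1b26 was 402, 546, 274, 206 and 349 and 65.0, 35.8, 11.5 and 1679. As with Klk1, whose values are given above, the first 3 NOD-scid mice lay below all B6-scid mice and replicate 4 lay within or above the B6-scid range. Klk1b5 on 161637_f_at repeated this with 691, 2445, 1054, 749 and 642 against 63.2, 41.2, 28.0 and 1291. Klk1b8, Klk1b9 and Klk1b11 were dim in both strains, at 68.6 to 539.8 and 25.7 to 379.9 for Klk1b8 (104497_f_at) and 57.6 to 243 and 22.2 to 279 for Klk1b11. Klk1b9 was too dim for the test. None of the 10 probe sets tested was called, where 0.957% of all probe sets were, and none separated the strains without overlap, where 7.09% did. The log2 difference was -3.01 (SE 0.87, adjusted p = 0.163) for Klk1, -2.71 for Klk1b5 (161637_f_at), -2.26 for Klk1b22 and -2.02 for Klk1b16. In all, 9 of 10 were below 0, with a median of -2.04 beside 0.02 over all probe sets.

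The differences of Klk1, Klk1b5 (161637_f_at), Klk1b22 and Klk1b16 were smaller in size with NOD-scid replicate 4 included than without it. Without it 6 of 9 probe sets tested were called, all lower in NOD-scid glands: Klk1 by -3.92 (adjusted p = 0.0402) and, on 100060_i_at, -2.87 (adjusted p = 0.0327), Klk1b5 (161637_f_at) by -3.75 (adjusted p = 0.00857), Klk1b16 by -3.29 (adjusted p = 0.0206), Klk1b22 by -3.09 (adjusted p = 0.0461) and Klk1b26 by -2.49 (adjusted p = 0.0247). This omission was chosen after the values were seen, and B6-scid replicates 2 and 3 were kept. The remaining NOD-scid signals were 4.14 to 11.9 on 100060_i_at and 28.0 to 63.2 on 161637_f_at. For Klk1b16 they were 48.6 to 98.8 and for Klk1b26 11.5 to 65.0. All of these lay below the filter's cut-off, so those probe sets were tested through their B6-scid signals alone. Their differences rest on dim NOD-scid values. NOD-scid replicate 4 held Mucl1, a salivary and lacrimal mucin-like protein, at 27685, against 492 to 1772 in the other NOD-scid lacrimal samples. It held Prol1 at 76723 against 1259 to 2043. In B6-scid lacrimal glands Prol1 lay between 39542 and 97806. B6-scid replicates 2 and 3 held the salivary transcripts Smr3a at 179935 and 195548 and Amy1 at 185011 and 181639, and they were also the highest in Klk1, Klk1b5, Klk1b16 and Klk1b22. Summed parotid markers (3 of 3 with a probe set) ran from 522 to 532254 in B6-scid and from 145 to 435 in NOD-scid lacrimal samples, and submandibular acinar markers (8 of 12 with a probe set) from 123772 to 543886 and from 122970 to 211570. In NOD-scid replicate 4, Smr3a was 47.8 and Amy1 16.6. With all 3 samples left out, a choice made after seeing the data, 3 B6-scid and 3 NOD-scid samples remained and 3 members could be tested. Klk1 was then called with a log2 difference of -3.10 (adjusted p = 0.0105) and Klk1b22 with -2.43 (adjusted p = 0.0481), while Klk1b5 (104495_f_at) gave -2.21 (adjusted p = 0.210).

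**Figure D5:**
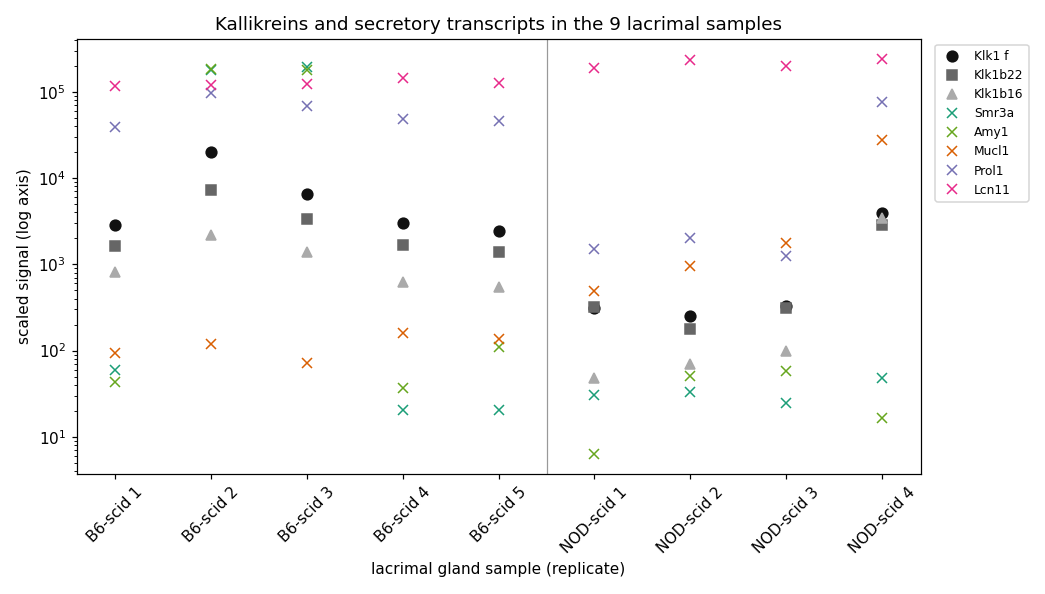
Scaled signal (log axis) in the 9 lacrimal samples, by mouse, of 3 kallikrein probe sets (filled symbols; Klk1 f is 100061_f_at) and 5 secretory transcripts (crosses). B6-scid 2 and 3 are high in Smr3a and Amy1, NOD-scid 4 is high in Mucl1 and Prol1 together with the kallikreins, and Lcn11 lies at 117665 or more in all 9.

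At 15 weeks, lacrimal gland was set against submandibular gland. In B6-scid mice 10 of 11 probe sets were called, where 10.9% of all probe sets were called in either direction, and in NOD-scid mice all 11 were, where 15.0% were. All of those called were lower in lacrimal gland. On the log2(signal + 32) scale the largest difference was that of Klk1b26, with -7.10 (SE 0.67, adjusted p = 9.50e-07) and -9.17 (SE 0.71, adjusted p = 6.14e-08). Klk1b11 fell by a log2 difference of -6.54 and -8.02, and Klk1 on its family probe set by -4.15 and -7.24. The lacrimal signals of Klk1b11 and Klk1b26 were dim. They reached 100 in 3 of 5 B6-scid and 2 of 4 NOD-scid samples for Klk1b11 and in 5 of 5 and 1 of 4 for Klk1b26, so no fold is given. In NOD-scid mice 100060_i_at, 161637_f_at, 104497_f_at, Klk1b9 and Klk1b16 also reached 100 in only 1 of 4 lacrimal samples. In B6-scid mice Klk1b9 and 104496_i_at did so in 2 of 5. The calls of these probe sets rest on dim lacrimal values. The probe set not called in B6-scid mice was 100060_i_at of Klk1, at 1.43 (SE 0.63, adjusted p = 0.167). The medians were -4.64 and -7.24, beside -0.0031 and 0.02 over all probe sets. Without overlap were 9 and 10 of 11 probe sets, where 10.2% and 16.7% of all probe sets did not overlap. The labels number the mouse that each gland came from, and with equal numbers of a strain read as the same mouse the fit was repeated with the mouse as a block. It kept 10 of 11 in each strain, and 100060_i_at in NOD-scid mice no longer passed, at -2.74 (adjusted p = 0.0680).

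The step from submandibular to lacrimal gland was steeper in NOD-scid mice for all 11 probe sets by value, but the difference between strains did not pass for any, where 0.286% of all probe sets did. Klk1 on 100060_i_at had the lowest adjusted p, with -4.16 (SE 0.93, adjusted p = 0.0700), and Klk1 on 100061_f_at gave -3.09 (SE 0.90, adjusted p = 0.207). Without adjustment 10 of 11 had p under 0.05, but the share of all probe sets under that p is not given here, so the count has no background beside it. Leaving out NOD-scid lacrimal replicate 4 made 7 of 11 pass, among them Klk1 at -4.00 (adjusted p = 0.00577) and Klk1b16 at -3.92 (adjusted p = 0.00206). With the 3 lacrimal samples left out, 7 of 11 passed as well, with Klk1 at -3.18 (adjusted p = 4.23e-05) and Klk1b5 (161637_f_at) at -3.53 (adjusted p = 1.76e-05). Both omissions were chosen after the values were seen. With the mouse as a block none passed. Over all settings, 36 to 138 of all probe sets passed in this comparison.

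Genes related to the cluster by function were read from lists. Among 11 granular convoluted tubule products, 7 had a probe set, and Egf and Crisp3 were lower in lacrimal than in submandibular gland in both strains, by log2 differences of -1.87 and -5.78 in B6-scid and -3.41 and -8.14 in NOD-scid mice. No other product was called in any comparison. Of 18 other kallikrein-related peptidases, 15 had a probe set. Klk1b1 and Klk1b21 fell with the members from submandibular to lacrimal gland, by -3.90 and -5.49 in B6-scid and -7.31 and -6.89 in NOD-scid mice. In NOD-scid mice Klk1b24 fell by 1.38 on the log2 scale, and Klk12, a kallikrein-related peptidase that is no close copy of Klk1, was higher by 1.41. No gene of either list was called between strains in any gland, and the strain difference of Klk1b21 was 1.04 (adjusted p = 0.220) at 9 weeks.

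Of the kallikrein-kinin system, 11 of 15 listed genes had a probe set. Mme, the kinin-degrading membrane peptidase neprilysin, was higher at 15 than at 9 weeks in B6-scid submandibular gland, with a log2 difference of 2.27 (SE 0.28, adjusted p = 0.00259), and was lower in lacrimal than submandibular gland of the same strain (-1.94). Cpm, a carboxypeptidase that trims kinins, was higher in B6-scid lacrimal gland (1.45), and Serping1, the inhibitor of plasma kallikrein, was lower in both strains (-0.66 and -0.52). Among 12 genes of steroid and thyroid hormone signalling, 9 had a probe set. Fkbp5, a glucocorticoid- and androgen-responsive chaperone, was higher in lacrimal than submandibular gland in B6-scid mice (1.41), and the thyroid hormone receptor Thrb was higher in NOD-scid mice (1.55). No gene of these lists was called between strains.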

How the data were processed

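MAS5 signal intensities of 117 arrays (39 gland samples on 3 designs) were deposited by the authors on a linear scale, with MAS5 named per the submitters' processing notes. Across arrays, the deposited 2% trimmed mean ran from 2500.5 to 2501.7. Signals were rescaled to a trimmed mean of 500, and 65.2% to 70.7% of probe sets on design A reached 100. Symbols came from the platform annotation, updated by RefSeq names, and 29196 of 29197 probe sets with 1 symbol matched. The 198 control probe sets were left out.

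Linear models were fitted to log2(signal + 32) in limma 3.58.1 (R 4.3.3; lmFit, eBayes), with p-values adjusted over all probe sets of the fit. Pancreas (10 samples), submandibular gland (20), lacrimal gland (9) and the glands at 15 weeks (19) were fitted separately, so that groups of a tissue or age share an estimate of the spread. Tests were checked on simulated data. The number of mice limits the precision. Each p-value weighs a group difference against the spread between samples of individual mice. That spread also holds differences in dissection, RNA and array.

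The genes named were the members, the fixed lists and the 5 genes closest to the members in the submandibular gland. Smr3a as a salivary marker, Amy1, Mucl1, Prol1, Lcn11 and Smgc were chosen after their values were seen. Members and lists were chosen with earlier results of these data known. Alternatives changed the pseudocount, filter, normalization, probe sets tested together, RNA quality covariate, block, samples in the fit and variance prior, and left out each sample. For the 15-week glands the labels name the mouse by number (mouse #1 and so on), and equal numbers of a strain were read as the same mouse, although same-numbered deviations correlated at -0.03 to 0.04. The numbers do not pair mice of different strains or ages.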

Additional observations from a re-analysis of the deposited data

Results flagged for a closer look

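In groups of 4 or 5 samples, 23 of 144 sets of values held a sample far from the others of its group (gap over range above Dixon's 95% critical value), 13 of them among the 88 sets of the kallikrein probe sets. Chance flags about 1 in 20 sets of normally distributed values, whereas these were signals on the linear scale. The sets are not independent, since probe sets share samples. Some transcripts outside the members were chosen after their values were seen. The counts therefore cannot be set against that share.

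NOD-scid lacrimal replicate 4 stood highest in its group for 8 kallikrein probe sets. Its signals were 3983 for Klk1 on 100061_f_at and 327 on 100060_i_at, 1743 for Klk1b5 on 104495_f_at and 1291 on 161637_f_at, 177 for Klk1b9, 3436.5 for Klk1b16, 2882 for Klk1b22 and 1679 for Klk1b26. The other 3 NOD-scid lacrimal samples did not exceed 375 on any of these probe sets. The same sample stood apart in Klk1b1 (5364), Crisp3 (421), Mucl1 (27685), Prol1 (76723) and Smgc (965).

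B6-scid lacrimal replicate 2 stood highest for Klk1 on 100061_f_at (20293), Klk1b5 on 104495_f_at (8290) and 161637_f_at (2445), Klk1b1 (23069) and Crisp3 (577). B6-scid lacrimal replicate 1 stood highest in Smgc (480.2).

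In the submandibular gland, NOD-scid replicate 5 at 15 weeks was lowest in Klk1b8 on 104497_f_at (13531, others 24080 to 26476) and in Smgc, a submandibular secretory protein (20306, others 52495 to 64191). B6-scid replicate 1 at 9 weeks was highest in Smgc (135091, others 7715 to 27360) and lowest of its group in Klk1b11. B6-scid replicate 4 at 15 weeks was highest for Klk1 on 100060_i_at (353, others 19.6 to 75.2). Why these samples stood apart was not tested.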

How the results depend on the processing

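The counts of members called were recomputed in every comparison under 11 planned or added settings and with each sample left out. Further added settings left out 3 lacrimal samples or took the mouse as a block, in comparisons that hold lacrimal samples only. No value of a called member changed sign. In pancreas, where 0 were called, design A alone gave 1 and a variance trend 2. In the 9-week submandibular strain comparison (1 called), pseudocount 8, no filter on dim probe sets, quantile normalization and the Actb 3' to 5' ratio as a covariate gave 0, the largest pseudocount and the fit of all 39 samples gave 2, and design A alone gave 3. At 15 weeks (1 called), pseudocount 8 gave 0. In lacrimal gland (0 called), the fit of all 39 samples gave 4 and leaving out 3 lacrimal samples gave 2. In each age comparison (0 called), the largest pseudocount, a filter of 200, the Actb covariate, a variance prior per design and a variance trend gave 1 each, while design A alone gave 2 in B6-scid and 1 in NOD-scid mice. For strain by gland (0 called), design A alone and a variance trend gave 1, the fit of all 39 samples 4 and leaving out 3 lacrimal samples 7. Leaving out 1 sample gave 0 to 0 in pancreas, 0 to 2 and 0 to 1 in submandibular gland at 9 and 15 weeks, 0 to 6 in lacrimal gland, 0 to 1 in either age comparison, 0 to 0 for strain by age, 10 to 10 and 11 to 11 for the gland differences and 0 to 7 for strain by gland. The cause of these changes was not tested.

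With the replicate number as a block, the 15-week strain comparison gave 0 and no other count changed, although the numbers do not pair mice of different strains or ages (r from -0.07 to 0.09, over 0.1 in no pair of groups). With the mouse as a block, strain by gland called 36 of all probe sets in place of 90. Counts over all probe sets in pancreas ran from 42 to 295 over the settings. The design has at most 5 mice a group, and dim probe sets such as 100060_i_at give no stable order.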
